A study of Mus musculus with 4 samples.

Results

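Collagen chains are the genes whose symbol has the form Col, a number, the letter a and a number, such as Col1a1. In whole inguinal mammary gland of mice at postnatal day 10, 42 of 17097 measured genes fitted this rule, through 68 probe sets. The tissue came from Mt2-mmp(-/-) mice, which lack the membrane-anchored metalloproteinase Mmp15 in every cell of the body, and from Mt2-mmp(+/+) littermates, all congenic on C57Bl/6J. There were 2 arrays per genotype, each given biotinylated RNA that had been amplified from 200 ng of total RNA of intact gland. The titles number the 2 arrays of a genotype as biological replicates, without saying how many mice went into each. Values are on the log2 scale for each probe set, and every fold change is a log2 difference, knockout minus wild type. Each gene was represented by its brightest probe set.

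Collagens are secreted proteins whose chains wind around each other in a triple helix built on a repeat with glycine at its start. Fibrillar collagens such as types I, III and V form the banded fibrils of connective tissue, type IV forms the sheet of the basement membrane under epithelium, around fat cells and around vessels, and the remaining types decorate fibrils, form beaded filaments or span the cell membrane. In the mammary gland these networks surround the epithelial ducts as they grow into the fat pad, and membrane-type metalloproteinases cut matrix at the cell surface.

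The members were 11 fibrillar chains, 6 basement membrane chains (type IV) and 25 chains of other classes. RefSeq lists 44 such genes, and Col6a6 and Col28a1 were not analysed here. The 23 nonspecific control probe sets had a median log2 value of 3.28 and a 95th percentile of 4.54, and 31 chains lay above that percentile on all 4 arrays while 9 lay at or under it on all 4. The mean log2 value of 19 chains was above 6.49, the median over all genes, and these are called the brighter chains. Array medians over all probe sets lay between 5.19 and 5.21, and arrays correlated between 0.994 and 0.997 across genes, with 0.995 between the knockouts and 0.995 between the wild types. Of markers of the gland, 9 of 10 luminal epithelial and 7 of 7 white adipocyte markers were above the control percentile on all arrays. So were 11933 of all 17097 genes, 12 of 12 endothelial markers and 5 of 5 Schwann cell markers. Lying above the percentile thus does not set the chains apart and does not check the tissue label. The list of hair follicle and epidermis markers split the arrays across genotype. Its mean log2 values were 7.42 in knockout 1 and 4.69 in knockout 2 against 4.73 in wild type 1 and 7.28 in wild type 2. Hair follicle genes such as Tchh and Krt25 showed the split, and so did Dsp and Perp of the same list. Dsp had 9.91 and 7.44 in knockouts against 7.85 and 9.94 in wild type. Perp had 9.18 and 6.20 in knockouts against 6.42 and 9.04 in wild type. The epidermal gene Krt10 did not share the split, with 7.16 and 7.22 in knockouts against 7.20 and 7.17 in wild type. Krt1, Lor and Flg, also epidermal, were under the control percentile on all arrays, so Krt10 alone of these was above it. No probe set was named for Mmp15, and the targeted gene therefore gave no check of the labels.

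No collagen chain passed the threshold, an adjusted p of 0.05 by limma with Benjamini-Hochberg adjustment over all genes. Over all genes 1 of 17097, or 0.00585%, passed in the lower direction and 0 in the higher. At an unadjusted p under 0.05 limma gave 3 of 42 chains (7.14%), against 7.01% of all genes, so the share of chains was near the background. All 3 were lower in knockouts, where 3.38% of all genes lay, and 0 were higher, where 3.63% lay. Both knockout values lay above both wild-type values in 6 chains (14.3%, against 18.2% of all genes) and below them in 7 (16.7%, against 19.4%), together 31% of the chains against 37.6% of all genes. The fold change was above 0 in 25 chains (59.5%) and in 48.8% of all genes, and in 14 of the 19 brighter chains (73.7%) against 50.8% of all genes above the same median, which were dimmer on average than the 19 chains. The median fold change was 0.04 over the chains and -0.002 over all genes. The median was 0.03 for the fibrillar, 0.07 for the basement membrane and 0.03 for the other chains. Without knockout 2 the median over all chains was -0.01 and 19 chains were above 0. Fold changes ran from -0.29 to 0.22, and the 95% interval of a chain reached a median of 0.22 on either side. With 2 against 2 arrays an exact permutation test cannot give a p below 0.333, so the p-values rest on the limma model.

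**Figure D1:**
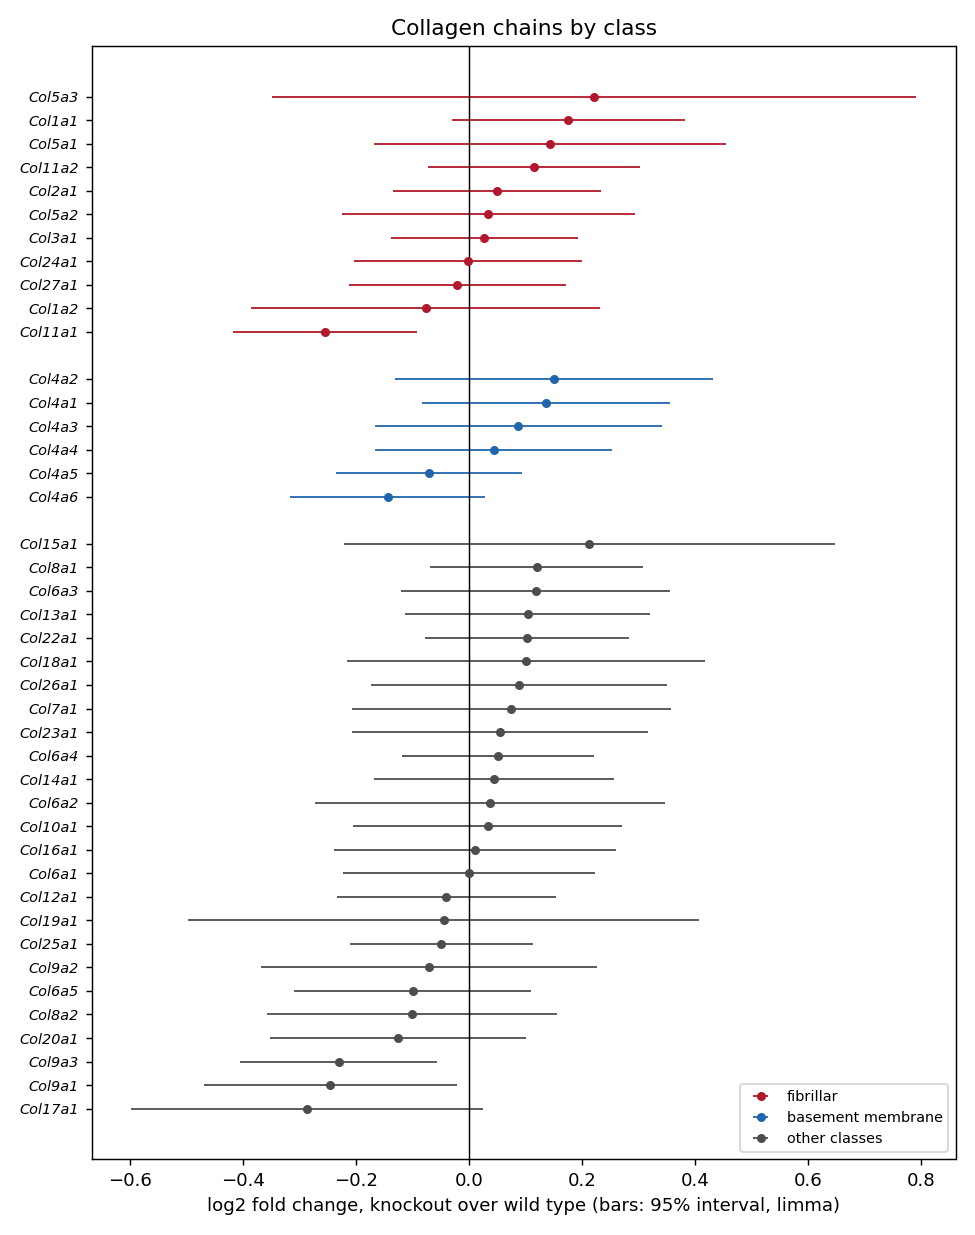
Log2 fold change of each of the 42 collagen chains, knockout over wild type, with its 95% interval from limma (n = 2 arrays per genotype), in red for fibrillar, blue for basement membrane and grey for other chains. Values run from -0.29 for Col17a1 to 0.22 for Col5a3, and the interval leaves out 0 for Col11a1, Col9a3 and Col9a1, before any adjustment for the number of genes.

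Among the fibrillar chains, Col1a1, the main chain of the type I fibrils of skin, fascia and gland stroma, had the smallest p on the higher side of all chains. Its log2 values were 12.26 and 12.29 in knockouts against 12.18 and 12.02 in wild type. Both knockout arrays were above both wild-type arrays, by a mean of 0.18 (SE 0.080, limma adjusted p = 0.736), which is 1.13-fold with an interval of -0.03 to 0.38 on the log2 scale. Col1a2, its partner in the type I molecule, had 7.85 and 8.14 in knockouts against 8.14 and 7.997 in wild type, and the genotypes overlapped (-0.08, SE 0.120). Col1a2 was represented by 1 probe set, far dimmer than that of Col1a1, and its fold change describes that probe set alone. The 15588 probe sets of the array that are not listed in the annotation were not used here. Further Col1a2 probe sets may be among them. Col3a1, the chain of the fine type III fibrils, had 13.34 and 13.32 in knockouts against 13.32 and 13.28 in wild type, a difference of 0.03 (SE 0.064). The genotypes overlapped for Col3a1, and its second probe set had 0.10.

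The type V chains, which enter type I fibrils and limit their width, showed array-to-array gaps larger than the genotype difference. Col5a1 had 11.29 and 11.45 in knockouts against 11.37 and 11.08 in wild type (0.14, SE 0.121), and its other probe sets had fold changes of 0.10 and 0.15. Col5a2 had 11.79 and 11.99 in knockouts against 11.93 and 11.78 in wild type (0.03, SE 0.100). Col5a3 had the largest gap between 2 arrays of a genotype among all chains. Its values were 10.55 and 11.12 in knockouts against 10.79 and 10.44 in wild type (0.22, SE 0.221, interval -0.35 to 0.79). Its second, far dimmer probe set had 0.03, and the mean of its probe sets had 0.13. At the brightest probe sets the genotypes overlapped for all 3 type V chains, with knockout 2 the highest array and wild type 2 the lowest. The fold change of Col5a3 was -0.06 without knockout 2 and 0.51 without knockout 1.

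Col11a1, a chain of the thin fibrils of cartilage, had the smallest p of all collagen chains and lay lower in knockouts. Its log2 values were 4.46 and 4.49 in knockouts against 4.74 and 4.73 in wild type, a difference of -0.26 (SE 0.063, limma adjusted p = 0.693). Both knockout arrays lay under the 95th percentile of the nonspecific controls and both wild-type arrays above it. The dimmer probe set of Col11a1 did not share the difference, with 4.26 and 4.25 in knockouts against 4.28 and 4.14 in wild type (0.05), and the mean of both had a fold change of -0.10. Col11a2, its partner chain, was under the control percentile on all arrays, with 4.16 and 4.04 in knockouts against 3.97 and 4.00 in wild type (0.11, SE 0.073). Of the remaining fibrillar chains, Col2a1, the main collagen of cartilage, had 0.05, Col27a1 -0.02 and Col24a1 -0.001. The second probe set of Col27a1 had 7.72 and 7.61 in knockouts against 7.52 and 7.56 in wild type (0.13). The sign for Col27a1 thus depended on the probe set. Col24a1 was under the control percentile on all arrays.

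The type IV genes sit in pairs that start close together and are read in opposite directions, and at the brightest probe sets the 2 members of each pair had fold changes of one sign. Col4a1 and Col4a2, which make the common basement membrane network, were higher in knockout 2 than in any other array. Col4a1 had 12.52 and 12.63 in knockouts against 12.51 and 12.37 in wild type (0.14, SE 0.085, limma adjusted p = 0.783). Its second probe set had 10.75 and 10.99 in knockouts against 10.72 and 10.52 in wild type (0.25). Knockout and wild type did not overlap at either probe set, and at the brighter one knockout 1 lay 0.01 above wild type 1. Col4a2 had 11.39 and 11.61 in knockouts against 11.43 and 11.26 in wild type (0.15, SE 0.109), with the genotypes overlapping. Without knockout 2 the fold changes of Col4a1 and Col4a2 were 0.08 and 0.04. Both genes lie on chromosome 8, as Mmp15 does, with 544 and 543 measured genes between them and Mmp15 in the order of the RefSeq annotation.

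The annotated starts of Col4a1 and Col4a2 overlap by 22 bases, chr8:11312805-11312826 in GRCm38.p6, shown here 5′ to 3′ on each gene's strand. Any link between these bases and the fold changes of the 2 chains was not tested. The capitals mark a GC box, the letters GGGCGG or their complement CCGCCC, and the sequence is from RefSeq.
Col4a1 (minus strand): ttggagacgCCGCCCgcgcact
Col4a2 (plus strand): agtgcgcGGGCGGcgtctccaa

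The other type IV pairs were dimmer or differed less. Col4a3 and Col4a4, chains of the network of kidney and lung, had 0.09 (SE 0.098) and 0.04 (SE 0.081), with overlapping genotypes. Col4a5 and Col4a6, on the X chromosome with starts 1343 bases apart, were lower in both knockout arrays. Col4a5 had 8.99 and 8.97 in knockouts against 9.07 and 9.03 in wild type (-0.07, SE 0.064). Col4a6, which is found in the basement membrane under epithelium and smooth muscle, had 5.47 and 5.39 in knockouts against 5.58 and 5.57 in wild type (-0.14, SE 0.067, limma adjusted p = 0.739). The second probe sets gave 0.11 for Col4a5 and -0.03 for Col4a6, so the sign for Col4a5 depended on the probe set. The basement membrane median was -0.02 without knockout 1.

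The type VI chains build the beaded filaments around cells and are abundant in fat and muscle stroma. At the brightest probe sets their genotypes overlapped in 4 of 5 cases, where 37.6% of all genes did not overlap. Col6a3, the largest of the chains and rich in binding modules, had 12.17 and 12.30 in knockouts against 12.20 and 12.04 in wild type (0.12, SE 0.092). Col6a2 had 11.53 and 11.76 in knockouts against 11.72 and 11.50 in wild type (0.04, SE 0.120). Col6a1 had 11.52 and 11.65 in knockouts against 11.65 and 11.52 in wild type, a difference of -0.0002 (SE 0.086, interval -0.22 to 0.22). In each of these 3 chains the gap between the 2 arrays of a genotype was larger than the difference between genotypes. Col6a4 had 4.63 and 4.69 in knockouts against 4.62 and 4.59 in wild type (0.05, SE 0.066), and its genotypes did not overlap. Its second probe set, under the control percentile on all arrays, went the other way. There the values were 3.48 and 3.37 in knockouts against 3.54 and 3.56 in wild type (-0.12), so the sign for Col6a4 depended on the probe set. Col6a5, under the control percentile on all arrays, had -0.10.

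The multiplexins Col15a1 and Col18a1, basement membrane zone collagens of vessels, muscle and fat whose ends are released as the fragments restin and endostatin, were again highest in knockout 2 and lowest in wild type 2. Col15a1 had 8.63 and 8.80 in knockouts against 8.73 and 8.27 in wild type (0.21, SE 0.169), and the fold change was -0.02 without wild type 2. Col18a1 had 8.63 and 8.90 in knockouts against 8.76 and 8.56 in wild type (0.10, SE 0.123), and its second probe set had 0.08. The network-forming chain Col8a1, found in vessel walls and stroma, had 7.60 and 7.49 in knockouts against 7.41 and 7.44 in wild type (0.12, SE 0.073, limma adjusted p = 0.778). Both knockout arrays were above both wild-type arrays for Col8a1, by less than the 95% interval. Its other probe sets had 0.09 and -0.05. Col8a2 and Col10a1, the collagen of growth plate cartilage, had -0.10 and 0.03 and were under the control percentile on all arrays.

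Fibril-associated chains, which sit on the surface of fibrils, included 2 of the 3 chains at an unadjusted p under 0.05. Col9a1, a chain of the type IX collagen that coats cartilage fibrils, had 6.56 and 6.73 in knockouts against 6.94 and 6.85 in wild type (-0.25, SE 0.087, limma adjusted p = 0.712). Col9a3, from the same molecule, had 5.29 and 5.34 in knockouts against 5.58 and 5.51 in wild type (-0.23, SE 0.068, limma adjusted p = 0.693). Both chains were lower in both knockout arrays. The second probe set of Col9a3 had 5.20 and 5.32 in knockouts against 5.46 and 5.40 in wild type (-0.17), while that of Col9a1, with 4.98 and 5.31 in knockouts against 5.03 and 5.14 in wild type, had 0.06. Averaged over its probe sets Col9a1 had a fold change of -0.09. Col9a2 was under the control percentile on all arrays, with -0.07 (SE 0.115).

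Type IX and XI collagens are best known from cartilage, and most of the cartilage and bone markers were near background. Of 10 such markers 3 (Bglap, Sp7 and Sox9) lay above the control percentile on all arrays. The median fold change of the 10 was 0.03, with 6 above 0 and 4 below. The bone gene Bglap had the smallest p of the list. Its values were 6.12 and 6.05 in knockouts against 6.19 and 6.34 in wild type (-0.18, SE 0.083), without overlap. Sp7, also a bone gene, had 0.03. Acan, the cartilage proteoglycan aggrecan, had 4.59 and 4.55 in knockouts against 4.46 and 4.48 in wild type, and the cartilage genes Matn1, Matn3, Hapln1 and Cnmd were under the percentile on all arrays. Sox9, a transcription factor of cartilage and of several epithelia, had a fold change of 0.02. Luminal epithelial markers were lower in knockouts in 9 of 10 cases, with a median fold change of -0.22 and mean log2 values of 7.81 and 7.68 in knockouts against 7.97 and 7.94 in wild type. The part of either cell type in the lower values of Col9a1, Col9a3 and Col11a1 was not tested. In tissue RNA, fewer cells of a type and less RNA per cell cannot be told apart.

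**Figure D2:**
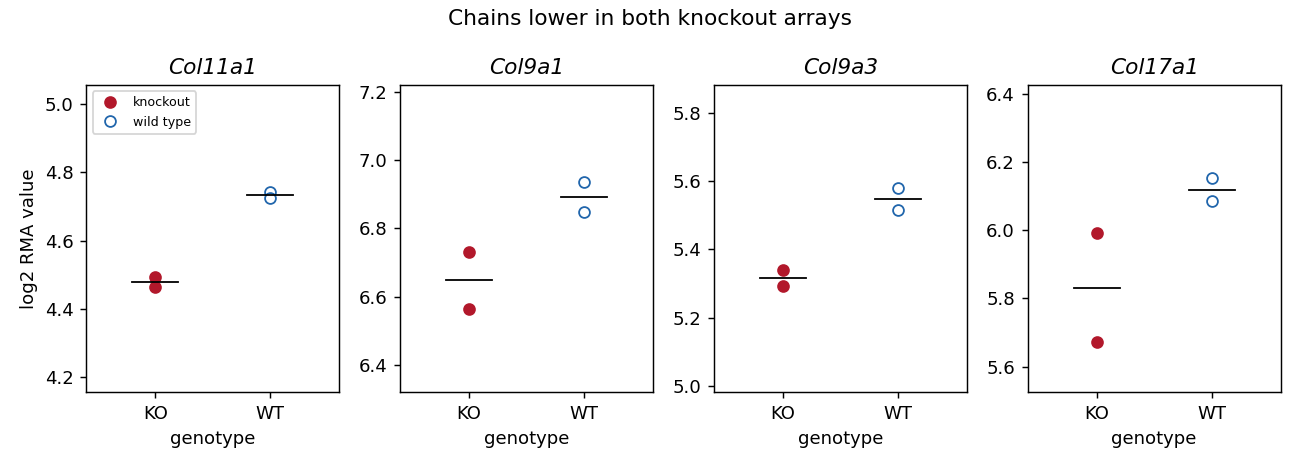
Log2 values of Col11a1, Col9a1, Col9a3 and Col17a1 on each array (points; red filled for knockout, blue open for wild type) with the genotype means as lines, on vertical axes of equal length. Both knockout arrays lie below both wild-type arrays in each panel, by a mean of -0.26, -0.25, -0.23 and -0.29, and no chain passed the adjusted threshold.

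Of the other fibril-associated chains, Col14a1, which binds decorin on type I fibrils, had 11.12 and 11.14 in knockouts against 11.17 and 11.00 in wild type (0.05, SE 0.082). Its other probe sets had 0.06 and -0.17. Col12a1 had 3.44 and 3.54 in knockouts against 3.58 and 3.48 in wild type, all under the control percentile, from 1 probe set. Col20a1 had 5.41 and 5.53 in knockouts against 5.52 and 5.67 in wild type (-0.13, SE 0.088), and Col22a1, a collagen of muscle-tendon junctions, had 4.58 and 4.68 in knockouts against 4.51 and 4.53 in wild type (0.10, SE 0.070). Col16a1 had 0.01. Col19a1, with all arrays under the control percentile, had 4.04 and 4.09 in knockouts against 3.85 and 4.37 in wild type, the largest wild-type gap of all chains and a difference of -0.04 (SE 0.176). Differences in these chains were within the spread between arrays, apart from Col22a1, where the genotypes did not overlap and wild type was under the percentile.

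The epithelial collagens were measured through single probe sets. Col17a1, a transmembrane collagen of the hemidesmosomes that anchor basal keratinocytes and myoepithelial cells, had the most negative fold change of all chains. Its values were 5.67 and 5.99 in knockouts against 6.15 and 6.08 in wild type (-0.29, SE 0.121, limma adjusted p = 0.729). Both knockout arrays were lower than both wild-type arrays, and the fold change was -0.45 without knockout 2 and -0.13 without knockout 1. The 9 basal epithelial markers were all lower in mean in knockouts (median fold change -0.19), with list mean log2 values of 7.96 and 7.81 in knockouts against 8.08 and 8.16 in wild type. They ran from -0.85 for Trp63 to -0.008 for Itga6, with Itgb4 at -0.03 and Acta2 at -0.04. Acta2 and Cnn1 are also in the list of pericyte and smooth muscle markers below. The part of basal epithelial cells in the Col17a1 difference was not tested. Col7a1, which forms the anchoring fibrils beneath the epidermis, had 5.50 and 5.78 in knockouts against 5.54 and 5.59 in wild type (0.08, SE 0.110), with overlapping genotypes.

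Of the remaining transmembrane chains, Col13a1 had a fold change of 0.10 and Col25a1 one of -0.05. Col23a1, chosen after its values were seen, had a brightest probe set with 5.37 and 5.13 in knockouts against 5.22 and 5.17 in wild type (0.05). A second probe set of Col23a1 had 5.25 and 4.998 in knockouts against 4.79 and 4.76 in wild type (0.35), and another had 4.58 and 4.51 in knockouts against 4.19 and 4.42 in wild type (0.24). The 2 dimmer probe sets thus lay higher in both knockout arrays and the brightest did not. Col26a1, outside the named classes, had 0.09 and was under the control percentile on all arrays.

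The brighter chains often shared the order of the 4 arrays. Over all 42 chains knockout 2 was the highest array in 15 (35.7%, against 25% of all genes), wild type 2 the lowest in 19 (45.2%, against 27.1%), and both held in 12 (28.6%, against 9.82%). Among the 19 brighter chains, knockout 2 was the highest array and wild type 2 the lowest in 10, or 52.6%, against 12.5% of genes above the same median. Knockout 2, wild type 1, knockout 1 and wild type 2 followed in exactly this falling order in 8 of the 19 chains, or 42.1%, against 5.81% of genes above that median. The median of the 19 chains lay -0.02 from the mean of the 4 arrays in knockout 1 and 0.11 in knockout 2, against 0.06 in wild type 1 and -0.11 in wild type 2. In 15 of the 19 the gap between the 2 arrays of a genotype exceeded the difference between genotypes, a share of 78.9% that was near the 72.4% of genes above that median. Chains share stromal cells and an array's RNA, so they are not independent, and this order was noticed in the data. Among the 23 dimmer chains knockout 2 was highest and wild type 2 lowest in 2.

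**Figure D3:**
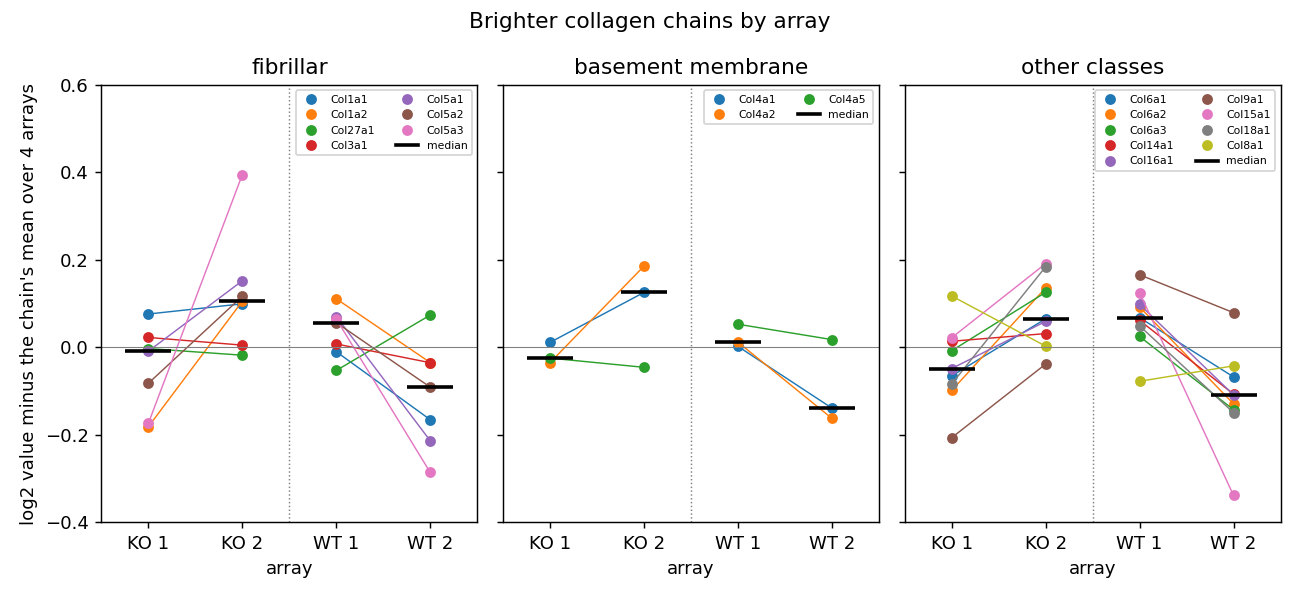
Deviation of each of the 19 brighter chains from its own mean over the 4 arrays (log2), by array (KO for knockout, WT for wild type) and class. Lines join the 2 arrays of a genotype and black bars are medians over the chains of a panel. Most lines run upward to KO 2 and downward to WT 2, and Col5a3 and Col15a1 span the widest ranges.

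Genes that make and mature collagen were described beside the chains. Of 21 genes of collagen folding and modification, 20 had a fold change above 0 (median 0.08), with 0 called in either direction. The procollagen chaperone Serpinh1 had 11.92 and 11.94 in knockouts against 11.92 and 11.59 in wild type (0.17, SE 0.122), and the lysyl hydroxylase Plod1 had 8.48 and 8.69 in knockouts against 8.51 and 8.21 in wild type (0.23, SE 0.131). P3h1, a prolyl 3-hydroxylase, had 0.26 (SE 0.124) and Colgalt2, a collagen galactosyltransferase, 0.25 (SE 0.083). Wild type 2 was the lowest array in 17 of the 21 and knockout 2 the highest in 13. Of 13 genes of procollagen trimming and crosslinking 10 were above 0 (median 0.11), with 0 called; the crosslinking enzyme Loxl1 had 0.26 (SE 0.095), Lox 0.19 (SE 0.085) and the dim protease Tll1 0.17 (SE 0.070). Pcolce, which speeds the cutting of procollagen ends, had 10.56 and 10.81 in knockouts against 10.62 and 10.37 in wild type.

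Small proteoglycans and other fibril partners had 14 of 16 members above 0 (median 0.07), with 0 called and 6 whose genotypes did not overlap, all higher in knockouts, where 18.2% of all genes were higher without overlap and 37.6% did not overlap in either direction. Prelp, a leucine-rich proteoglycan that joins basement membrane to collagen, had 9.76 and 10.06 in knockouts against 9.33 and 9.24 in wild type (0.62, SE 0.118, limma adjusted p = 0.675). Ogn, osteoglycin, had 0.28 (SE 0.072) and Aspn, asporin, 0.16 (SE 0.091). The difference of Prelp exceeded that of every collagen chain. Among 11 collagen receptors and binders 5 were above 0 (median -0.02), with 0 called. The integrin chain Itga1 had 0.25 (SE 0.096), the endocytic collagen receptor Mrc2 0.21 (SE 0.081) and the receptor Adgrg1 0.17 (SE 0.081). Among 11 genes of collagen breakdown 7 were above 0 (median 0.03), with 0 called. In that list the gelatinase Mmp9 had 0.18 (SE 0.065), the fibroblast protease Fap 0.25 (SE 0.112) and the cathepsin Ctsl 0.09 (SE 0.091).

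Marker lists of fibroblasts and endothelial cells followed the same arrays as the brighter chains. The median deviation of 12 fibroblast markers was 0.01 in knockout 1 and 0.11 in knockout 2, against 0.01 in wild type 1 and -0.09 in wild type 2. Of these 12, 9 had a fold change above 0 (median 0.12), and mean log2 values were 7.76 and 7.88 in knockouts against 7.76 and 7.68 in wild type. The 12 endothelial markers had deviations of -0.04 and 0.15 in knockouts against -0.01 and -0.14 in wild type, and all 12 were highest in knockout 2. Pericyte and smooth muscle markers did so less, with 0.02 and 0.03 in knockouts against -0.01 and -0.05 in wild type. Knockout 2 was highest and wild type 2 lowest in 2 of these 7 markers. The list of hair follicle and epidermis markers ran the other way, with deviations of 1.21 and -1.32 in knockouts against -1.11 and 1.24 in wild type. Dsp and Perp of that list shared this split, and the epidermal gene Krt10 did not. Tchh, a hair root sheath protein, had 10.74 and 3.49 in knockouts against 4.03 and 10.37 in wild type. The 2 arrays with high hair markers, knockout 1 and wild type 2, were thus those with the lower median of the brighter collagen chains in their genotype. The part of fibroblast, endothelial and hair follicle content in the order of the arrays was not tested.

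The marker lists of other cells gave further values beside the chains. The medians were 0.08 for 7 pericyte and smooth muscle markers, 0.02 for 7 white adipocyte markers, 0.79 for 8 brown adipocyte markers, 0.15 for 12 skeletal muscle markers, 0.02 for 5 Schwann cell markers and -0.09 for 11 macrophage markers. In each of these lists 0 genes were called by limma. The mean of the skeletal muscle list was highest in knockout 2, with 4.69 and 5.33 in knockouts against 4.86 and 4.71 in wild type. Knockout 2 was the highest array in 8 of these 12 markers. Only 5 of the 12 lay above the control percentile on all arrays. The part of these cells in the collagen values was not tested.

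**Figure D4:**
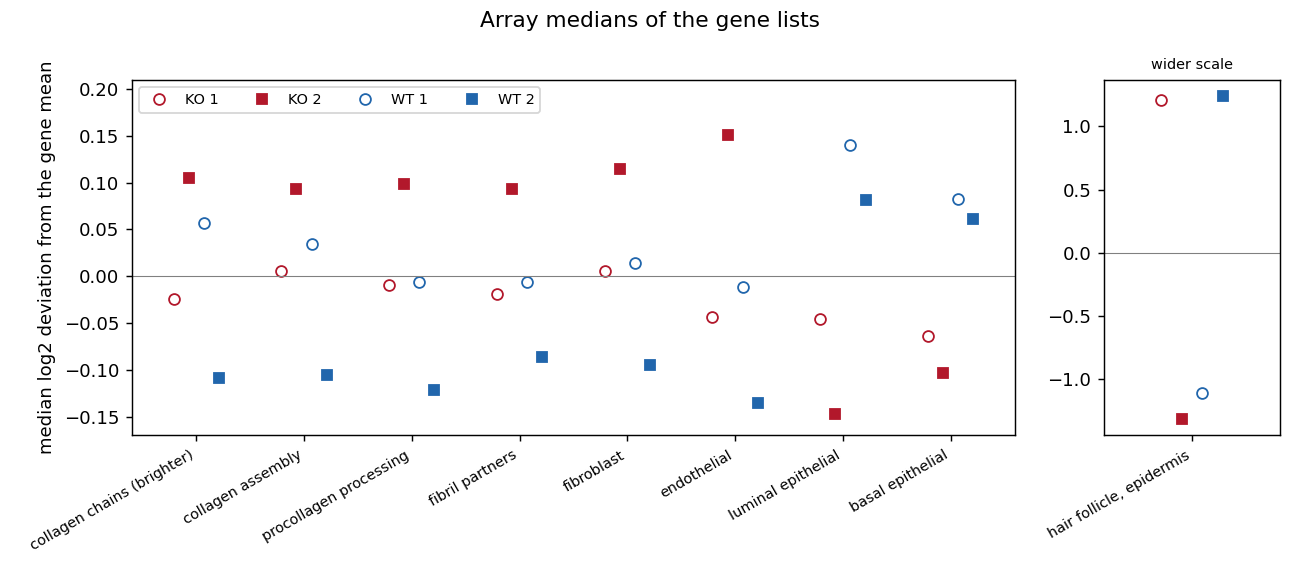
Median log2 deviation from the gene mean of the brighter collagen chains and of 8 gene lists on each array (red for knockout, blue for wild type; open circles for replicate 1, filled squares for replicate 2), with hair follicle and epidermis markers on a wider scale. The collagen chains lie at 0.11 in knockout 2 and -0.11 in wild type 2, and the hair markers at -1.32 and 1.24 in the same arrays.

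Promoter sequences were in the RefSeq table (GRCm38.p6) for 33 of the 42 chains, in 36 windows. In the 250 bases before the start a GC box (GGGCGG on either strand) was present in 21 windows, or 58.3%, against 48.2% of windows of all measured genes and 32.7% of all windows in the table. A CCAAT box (CCAAT on either strand) was present in 36.1% of the windows, against 34.9% of those of measured genes and 33.8% of all windows. A TATA box (TATAAA on either strand) was present in 13.9%, against 9.01% of windows of measured genes and 12.4% of all windows. The 100 bases before the start are shown for 2 type V chains that were highest in knockout 2, and for 2 chains that were lower in both knockout arrays. The capitals mark these motifs, read 5′ to 3′ on the gene's strand.
Col5a1 (chr2:27886325-27886424, plus strand): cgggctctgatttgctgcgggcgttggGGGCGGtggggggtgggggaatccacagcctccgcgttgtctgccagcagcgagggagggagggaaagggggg
Col5a3 (chr9:20815068-20815167, minus strand): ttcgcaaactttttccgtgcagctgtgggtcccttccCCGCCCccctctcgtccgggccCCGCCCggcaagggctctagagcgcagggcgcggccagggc
Col11a1 (chr3:114030440-114030539, plus strand): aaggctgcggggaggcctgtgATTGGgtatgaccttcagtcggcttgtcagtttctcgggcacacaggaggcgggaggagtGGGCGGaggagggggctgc
Col17a1 (chr19:47692043-47692142, minus strand): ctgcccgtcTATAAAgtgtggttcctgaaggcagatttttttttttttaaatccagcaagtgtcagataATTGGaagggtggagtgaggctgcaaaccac
The stretches of Col5a1 and Col5a3 held GC boxes and neither of the other motifs, Col11a1 held a CCAAT box and a GC box, and Col17a1 a TATA box and a CCAAT box. In its 250 bases Col5a3 also had a CCAAT box. These stretches are examples, and other chains did not divide in this way. Col4a5 and Col4a6, lower in both knockout arrays, held a GC box alone. Of chains highest in knockout 2, Col4a2 held a CCAAT box and a GC box, and Col6a3 held none of the motifs. A match of letters is a description of the sequence and not evidence of a bound factor.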

How the data were processed

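The authors deposited log2 values for each probe set. The submitters' processing notes name RMA and affy, with their versions not given in the sources used here. The RMA method corrects background, equalises the distributions of the arrays and combines probes, which hides shifts common to most genes and compresses differences of dim genes. Of 45141 probe sets, 28898 had 1 gene symbol in the platform annotation, and 99.3% of these matched the RefSeq table by gene ID. Knockout and wild type were compared by a two-sided limma test (version 3.58.1, R 4.3.3; lmFit, then eBayes) with genotype alone in the model, over 17097 genes, with Benjamini-Hochberg adjustment over all of them. The number of arrays limits the precision. Arrays were mapped to genotypes from their titles. The limma fit and its adjustment were tested on simulated data with independent noise on each array. The choice of probe set, the counts of overlap and array order and the motif search were not tested in this way. The members, classes and gene lists were chosen with earlier results of these data known. Values on every array are given for the main chains of each class, the 6 chains of smallest p in each direction, the 5 with the largest gap between arrays of a genotype, and those whose probe sets differed by 0.3 or more. Up to 3 genes of smallest p are named in each list of collagen-related genes, together with Serpinh1 and Pcolce, which with the cell markers named and the array values of Col4a5, Col23a1 and second probe sets were chosen after values were seen. The alternatives were other normalizations, the brighter genes only, the mean of probe sets or each probe set, an intensity trend or robust variances, the replicate number as a block, and each array left out.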

Additional observations from a re-analysis of the deposited data

How the results depend on the processing

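Under every alternative that was run 0 collagen chains or collagen probe sets passed the threshold, and the lowest adjusted p of a named chain was 0.472 by limma (Col15a1 without wild type 1). With 1 array left out the spread comes from the remaining pair, and the lone array is assumed to vary like it, so such p-values say little about stability. With each probe set tested separately, 2 of 28898 probe sets were called. The number of genes called over the whole table, 1 as reported, was 0 with the mean of probe sets and 0 with the replicate number as a block. It was 0 with a crossed pairing added after the data were seen, and 2 with robust variances. It ran from 0 to 1 with 1 array left out. Deviations of same-numbered arrays correlated at -0.48 over genes, and the labels do not pair the arrays; with the replicate block the chains' fold changes do not change, and Col11a1 had an adjusted p of 0.716 by limma. With the brighter genes only 19 chains are left, 14 of them were above 0, 5 had genotypes that did not overlap (26.3%, against 41.7% of the genes left), and the basement membrane median was 0.137. Counted over 68 probe sets, 42 were above 0 (61.8%, against 49.5% of all probe sets) and 21 did not overlap (30.9%, against 37%). With 1 array left out the chains above 0 numbered 19 to 26 and those not overlapping 25 to 33 (59.5% to 78.6%, against 65.2% to 70.9% of all genes), where fewer arrays make overlap rarer by construction. The median fold change then ran from -0.015 to 0.067 over all chains, from -0.013 to 0.070 for fibrillar, from -0.021 to 0.117 for basement membrane and from -0.038 to 0.054 for other chains. Direction turned with 1 array left out in 11 of 26 named chains. The range was -0.220 to 0.068 for Col1a2, -0.065 to 0.134 for Col5a2, -0.063 to 0.506 for Col5a3, -0.068 to 0.068 for Col6a1, -0.080 to 0.154 for Col6a2, -0.065 to 0.216 for Col7a1, -0.087 to 0.0077 for Col12a1, -0.039 to 0.129 for Col14a1, -0.019 to 0.445 for Col15a1, -0.034 to 0.234 for Col18a1 and -0.302 to 0.213 for Col19a1. Col14a1 also turned to -0.019 with the mean of its probe sets, and the cause of these turns was not tested. The other 15 kept their direction with each array left out, and Col3a1, one of them, had a fold change of 0 under quantile normalization. Nearness to the nonspecific controls limits what the 9 dimmest chains can show.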
